A study of Mus musculus with 3 samples.

Results

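Receptors for adenosine, ATP, prostaglandin E2, cysteinyl leukotrienes, histamine and the complement anaphylatoxins were read in 3 libraries of skin mast cells. The members were 10 receptor genes, found by their symbols among the 20677 features of the deposited table (17613 with a gene symbol). They were the adenosine receptors Adora3 and Adora2b, the ATP-gated channels P2rx1 and P2rx7, the prostaglandin E2 receptors Ptger3 and Ptger4, the leukotriene receptor Cysltr1, the histamine receptor Hrh4 and the anaphylatoxin receptors C5ar1 and C3ar1. Of these, 9 reached 1 FPKM in at least 1 library, and C3ar1 did not. FPKM corrects a gene's fragment count for the length of its transcripts and for sequencing depth.

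All mice were of a mixed C57BL/6xCD1xFVB background, were sampled 1 week after birth, and carried an EYFP reporter switched on by a Cre recombinase after a pulse of 4'OHT. Early EMP (erythro-myeloid progenitor) stands for Csf1rCre/EYFP mice pulsed on embryonic day 8.5, late EMP for Runx1Cre/EYFP mice pulsed on that same day, and fetal HSC (haematopoietic stem cell) for Runx1Cre/EYFP mice pulsed on day 9.5. The label marks the descendants of cells in which the driver gene was active at the pulse. With a single library per origin (n = 1) replicate error is unknown, and no p-values are reported. Early EMP has another Cre driver than the remaining libraries, so driver and origin cannot be told apart wherever it is compared. The labels give neither the number nor the sex of the animals, nor whether they were pooled. Below, late over early, fetal over early and fetal over late name the pairs of libraries compared, and triplets of values run from early EMP through late EMP to fetal HSC.

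Mast cells store histamine, proteases and heparin, and release them when IgE bound to their surface is crosslinked. Small mediators tune that release through G protein-coupled receptors. Those that couple to Gi and activate phosphoinositide 3-kinase gamma tend to add to it, and those that couple to Gs raise cyclic AMP and tend to dampen it. ATP released from damaged cells opens P2X channels directly, and ectoenzymes convert ATP to adenosine, which acts on a separate receptor family. The complement fragments C3a and C5a are called anaphylatoxins because they can make skin mast cells degranulate.

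The libraries were those of mast cells by their markers. All 11 markers of connective tissue mast cells, among them Kit, Cma1 and Mrgprb2, were above 1 FPKM in every library. Among other cell types, all 6 basophil markers passed 1 FPKM and summed to 2817, 969 and 1767 FPKM. Most of it was Prss34 (2386, 459 and 989), highest in early EMP, and Cd200r3 (385, 434 and 687), highest in fetal HSC. Mcpt8, a further basophil marker, was at 14.53, 17.45 and 35.86 FPKM. The part of basophils in these libraries was not tested. Markers of dendritic cells, B cells, fibroblasts and keratinocytes each summed to less than 20 FPKM. Summed FPKM lay between 614207 and 640500. Many low values lie on steps, from which depths near 14650000, 14950000 and 16650000 fragments were estimated, without precision. Features above 0 numbered 17171, 18599 and 15321. Sex-linked RNA differed between libraries, with Xist at 25.6, 0.53 and 52.0 FPKM and the Y-linked Ddx3y at 20.7, 38.5 and 0.32 FPKM. Sex and origin therefore cannot be told apart.

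The upstream sequences of 3 members are shown here: Adora3 because it was the highest of the receptors, and P2rx1 and P2rx7 because both lay at least 2-fold lower in fetal over early. Each is given 5' to 3' on the plus strand of GRCm38.p6, from RefSeq, and ends at the base before the annotated gene. The Adora3 sequence is chr3:105904171-105904420, the P2rx1 sequence chr11:72998895-72999055 and the P2rx7 sequence chr5:122643677-122643926. Capitals mark matches, on either strand, to GATAA (bound by GATA factors), CACATG or CACGTG (E-boxes bound by MITF), TGTGGT (bound by RUNX factors) and GAGGAA (bound by PU.1), none of which overlapped in these stretches.
Adora3: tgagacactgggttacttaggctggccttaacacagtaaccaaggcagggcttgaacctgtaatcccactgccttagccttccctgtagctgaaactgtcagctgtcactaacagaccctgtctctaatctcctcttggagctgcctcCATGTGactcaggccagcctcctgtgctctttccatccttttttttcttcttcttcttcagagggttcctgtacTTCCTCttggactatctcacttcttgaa
P2rx1: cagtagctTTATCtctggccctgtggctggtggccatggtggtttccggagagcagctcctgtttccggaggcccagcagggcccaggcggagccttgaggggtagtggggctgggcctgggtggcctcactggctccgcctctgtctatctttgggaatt
P2rx7: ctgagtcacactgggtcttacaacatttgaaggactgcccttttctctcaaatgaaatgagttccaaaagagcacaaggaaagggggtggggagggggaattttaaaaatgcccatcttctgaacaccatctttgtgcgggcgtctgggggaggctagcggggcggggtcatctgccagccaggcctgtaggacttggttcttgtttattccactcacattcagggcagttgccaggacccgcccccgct
In the 250 bases before its annotated start, Adora3 held 1 E-box match and 1 match to GAGGAA. The P2rx1 window held 1 match to GATAA. The window at the first P2rx7 start held none of the 4 motifs, and the window at a second annotated P2rx7 start held 1 match to GATAA. Such matches are common. Among 32817 promoter windows of the same length, 22.6% held GATAA, 17.6% an E-box, 14.04% TGTGGT and 23.3% GAGGAA. A match describes the letters only.

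The receptors ranged from listed at 0 to the 106th most abundant feature of a library, and their levels fell into a high, a middle and a low group. Adora3, P2rx1 and Hrh4 were above 50 FPKM in every library. P2rx7 and Ptger3 lay between 5 and 16 FPKM. C5ar1, Ptger4, Cysltr1, Adora2b and C3ar1 were below 4 FPKM. The first 4 places of the order, Adora3, P2rx1, Hrh4 and P2rx7, were the same in the early and late EMP libraries, while in the fetal HSC library Ptger3 stood above P2rx7. FPKM is a value per length, so the order within a library can be read across genes.

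**Figure D1:**
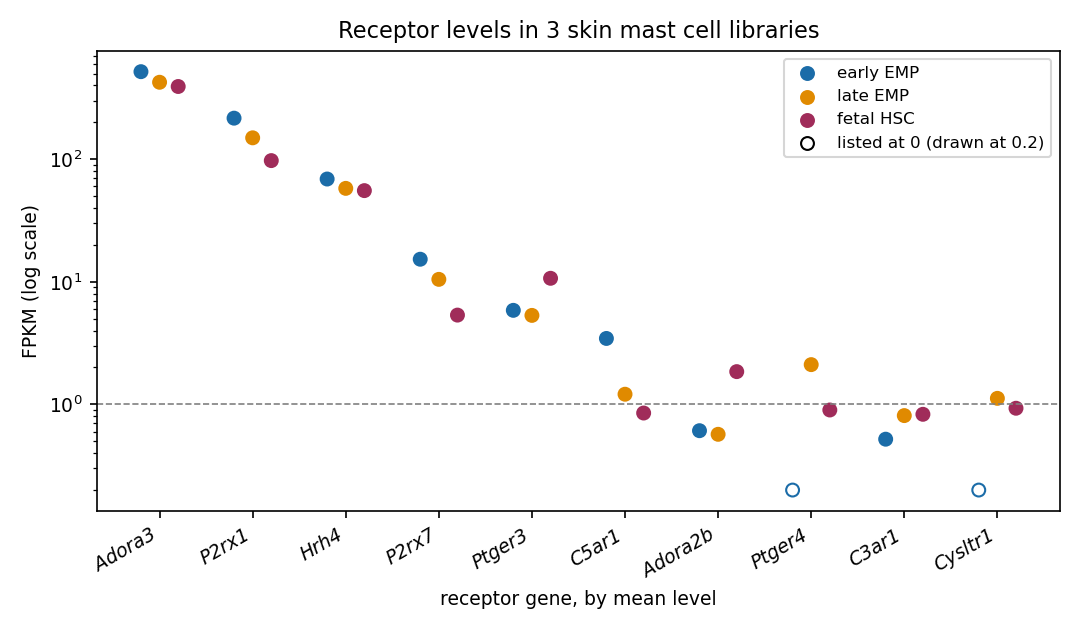
Level of each of the 10 receptor genes in each library (FPKM on a log axis, 1 point per library), ordered by mean level, with a dashed line at 1 FPKM. Adora3 is highest at 392 to 518 FPKM, and Ptger4 and Cysltr1 are listed at 0 in the early EMP library (open points, drawn at 0.2).

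Adora3 was the dominant adenosine receptor of these cells. It encodes an adenosine receptor (chromosome 3, 105904421 to 105908928, plus strand), Gi-coupled, through which adenosine adds to degranulation in mouse mast cells. It was at 517.83 FPKM in early EMP, 424.4 in late EMP and 391.93 in fetal HSC. It ranked 106th, 137th and 150th among the 20677 features of its library. The early EMP library was thus highest, by 1.22-fold over late EMP and 1.32-fold over fetal HSC, both under 2-fold. On the scale used for all genes, log2((FPKM + 1) / (FPKM + 1)), the difference was -0.29 for late over early and -0.40 for fetal over early. Scaling the libraries by median-of-ratios factors changes the order of its levels between late EMP and fetal HSC.

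Adora3 lies inside the span of Tmigd3, on the same strand, and the GENCODE annotation gives 779 of its 3729 exonic bases (20.9%) also to Tmigd3. Reads in those bases could be credited to either gene. Tmigd3 was at 86.27, 84.85 and 94.22 FPKM in the same order. The sum of both genes was 604, 509 and 486 FPKM, so early EMP was also highest for the sum.

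The other adenosine receptors were far lower. Adora2b, which encodes a low-affinity adenosine receptor (chromosome 11, 62248984 to 62266452), was at 0.61, 0.57 and 1.85 FPKM. The fetal HSC library alone was above 1 FPKM, and its value was 3.03 times that of early EMP and 3.25 times that of late EMP as a plain ratio. With 1 FPKM added these differences were 0.82 and 0.86 on the log2 scale, under 2-fold. At the implied depth the values stand for about 16, 15 and 53 fragments, with 95% Poisson intervals of 9.15 to 26.0, 8.40 to 24.7 and 39.7 to 69.3. Those intervals cover counting error only. Adora2a, a Gs-coupled receptor and no member of the set, was at 16.79, 16.37 and 14.65 FPKM. Adora3 made up 96.7%, 96.2% and 95.9% of the summed FPKM of the 4 adenosine receptor genes.

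P2rx1 was the most abundant ATP-gated channel, highest in early EMP and lowest in fetal HSC. It encodes a fast, rapidly desensitising cation channel (chromosome 11, 72999056 to 73015200, plus strand). It was at 216.21 FPKM in early EMP, 149.47 in late EMP and 97.42 in fetal HSC, the 275th, 431st and 732nd feature by level. Early EMP was highest and fetal HSC lowest, a 2.22-fold span. The log2 difference was -0.53 for late over early, -1.14 for fetal over early and -0.61 for fetal over late. The implied fragments, about 7526, 5287 and 3822, leave counting error small beside these differences, but variation between animals and preparations is not measured.

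P2rx7 followed the same order at a lower level. It encodes the channel (chromosome 5, 122643927 to 122692336, plus strand) that needs high ATP and drives assembly of the NLRP3 inflammasome in macrophages. It was at 15.28, 10.47 and 5.35 FPKM, a 2.86-fold span. The log2 differences were -0.51, -1.36 and -0.85 for late over early, fetal over early and fetal over late. The table sums 6 transcripts of P2rx7, so this value does not separate its isoforms.

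The neighbouring channel gene P2rx4 did not show that order. P2rx4, which begins 15182 bases after P2rx7 and encodes a slowly desensitising channel, was at 86.7, 90.0 and 77.21 FPKM. Ratios within a library do not depend on how libraries are scaled. P2rx1 stood at 2.49, 1.66 and 1.26 times P2rx4. P2rx4 stood at 5.67, 8.60 and 14.4 times P2rx7. The share of P2rx1 in the summed FPKM of the P2X genes was 67.5%, 59.1% and 53.7%, while that of P2rx4 was 27.1%, 35.6% and 42.5%.

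**Figure D2:**
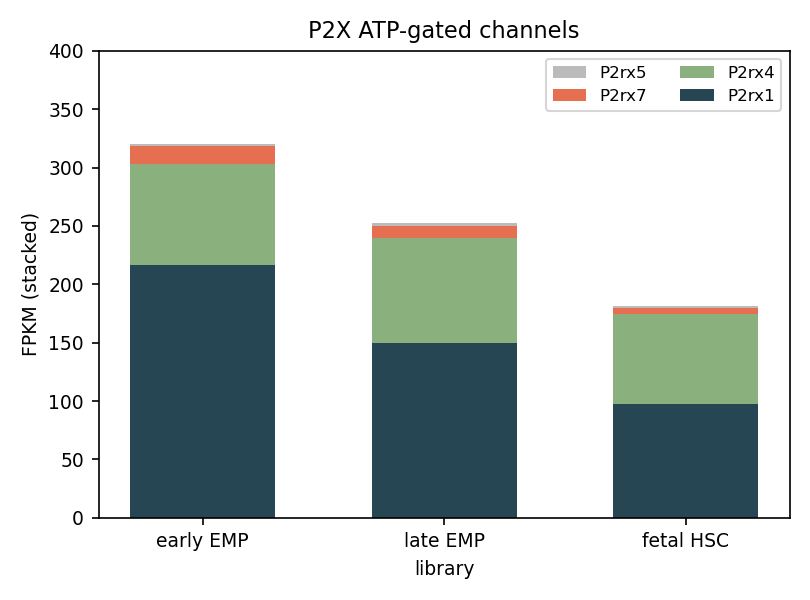
FPKM of the 4 P2X channel genes above 1 FPKM, stacked for each library (bars start at 0). The P2rx1 part shrinks from 216 FPKM in early EMP to 97.4 in fetal HSC, while the P2rx4 part stays between 77.2 and 90.0.

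P2rx1 is also a channel of platelets, so the platelet and megakaryocyte markers were read beside it. Of the 9 markers found, 5 passed 1 FPKM, and 4 of these were at least 2-fold lower in fetal HSC than in early EMP and none higher. Of all 14412 features that reached 1 FPKM in at least 1 library, 17.8% were lower and 8.19% higher in that comparison. The count of markers is no result about platelet RNA. Gp1ba, a platelet glycoprotein, did not follow the 4 lower markers, at 42.53, 44.16 and 44.32 FPKM. All 9 markers summed to 122, 109 and 65.0 FPKM. Among them Pf4, platelet factor 4, was at 46.72, 38.32 and 7.05 FPKM and Itga2b, a platelet integrin, at 24.97, 17.41 and 10.95. The platelet-defining Ppbp, Gp1bb and Treml1 were listed at 0 in early EMP and fetal HSC and were at 0.27, 0.72 and 0.88 FPKM, respectively, in late EMP. The part of platelet RNA in its difference was not tested. In bulk RNA, fewer cells of a type and less RNA per cell cannot be told apart.

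Ptger3 was the leading prostaglandin E2 receptor. It encodes EP3 (chromosome 3, 157566821 to 157644758, plus strand), a mainly Gi-coupled receptor by which prostaglandin E2 promotes degranulation in mouse mast cells. It was at 5.85, 5.32 and 10.68 FPKM. The fetal HSC library was highest, at 1.83 times early EMP and 2.01 times late EMP as a plain ratio. With 1 FPKM added the log2 differences were 0.77 and 0.89, under 2-fold, and with median-of-ratios factors the difference from late EMP was 1.00. About 260, 241 and 537 implied fragments stand behind the 3 values.

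Ptger4 encodes EP4 (chromosome 15, 5233399 to 5244187, minus strand), a Gs-coupled receptor for the same prostaglandin. It was listed at 0 in early EMP and was at 2.11 FPKM in late EMP and 0.90 in fetal HSC. About 100 and 47 fragments are implied for the latter libraries, with intervals of 81.4 to 122 and 34.5 to 62.5. A listed 0 can also be a failed estimate, so no fold against early EMP is given. Fetal HSC was lower than late EMP by 0.71 on the log2 scale. Ptger1, a further prostaglandin E2 receptor, was at 2.18, 3.03 and 3.16 FPKM, and Ptger2 stayed below 0.5 FPKM.

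Cysltr1 encodes a receptor for the cysteinyl leukotrienes, lipids that mast cells themselves release (chromosome X, 106576509 to 106603679, minus strand). It was listed at 0 in early EMP and was at 1.12 FPKM in late EMP and 0.93 in fetal HSC, or about 84 and 78 implied fragments. The intervals of these counts, 67.0 to 104 and 61.7 to 97.3, overlap. Cysltr1 is X-linked and the libraries differ in sex-linked RNA, whose part in these levels was not tested. Its relative Cysltr2 was also listed at 0 in early EMP and was at 0.93 and 1.75 FPKM in late EMP and fetal HSC. Cysltr1 and Cysltr2 were thus both listed at 0 in early EMP alone.

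Hrh4 was the histamine receptor of these cells. It encodes the H4 receptor (chromosome 18, 13006982 to 13023701, plus strand), a Gi-coupled receptor known for guiding the migration of mast cells towards histamine. It was at 68.93 FPKM in early EMP, 57.84 in late EMP and 55.44 in fetal HSC. The values lay within 1.24-fold, with early EMP highest, and the log2 differences were -0.25, -0.31 and -0.06. Like Adora3, Hrh4 had a different order of late EMP and fetal HSC with median-of-ratios factors. Hrh4 made up 99.7%, 99.5% and 97.4% of the summed FPKM of the 4 histamine receptor genes. Hrh2, the Gs-coupled H2 receptor, was at 0.05, 0.13 and 1.48 FPKM, and Hrh1 and Hrh3 stayed below 0.2 FPKM.

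The anaphylatoxin receptors were low in all libraries. C5ar1 encodes the receptor for C5a (chromosome 7, 16246743 to 16259540, minus strand). It was at 3.45 FPKM in early EMP, 1.21 in late EMP and 0.85 in fetal HSC, and the early EMP library stood apart above the others. The plain ratio of early EMP to late EMP was 2.85, and to fetal HSC 4.06. With 1 FPKM added the log2 differences were -1.01 and -1.27, of which the first lies just past 2-fold and is -0.97 when all libraries are rescaled to the same total. About 121, 43 and 34 fragments are implied, with intervals of 100.4 to 145, 31.1 to 57.9 and 23.5 to 47.5. C3ar1, the receptor for C3a (chromosome 6, 122847140 to 122856157, minus strand), was at 0.52, 0.81 and 0.83 FPKM, under the filter of 1 FPKM. Its implied 32, 51 and 58 fragments have overlapping intervals. C5ar2, a second C5a receptor, was listed at 0, 0.51 and 0.04 FPKM.

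**Figure D3:**
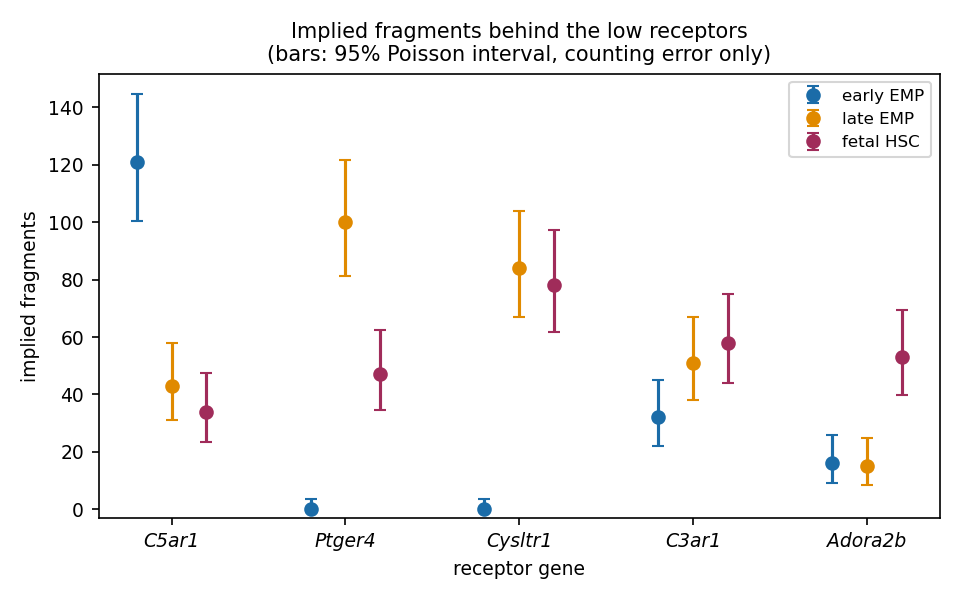
Implied fragments behind the 5 lowest receptors in each library, computed from FPKM, transcript length and the implied depth, with 95% Poisson intervals that cover counting error only. The early EMP interval of C5ar1 lies above those of the other libraries, that of Adora2b in fetal HSC lies above the others, and the C3ar1 intervals overlap.

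C5ar1 is abundant on macrophages and neutrophils, so their markers were read beside it. Of 15 macrophage markers 12 passed 1 FPKM. In late over early 1 was at least 2-fold lower and 2 were higher, and in fetal over early 5 were lower and 1 higher. Over all features tested, 10.8% were lower and 8.65% higher in late over early, and 17.8% and 8.19% in fetal over early. All 15 macrophage markers summed to 134, 114 and 99.0 FPKM. Single markers differed in direction. In late over early Cd68 was the lower one, at 17.78, 6.44 and 9.7 FPKM. Adgre1 (0.5, 2.18 and 0.04) and Cd163 (0.02, 1.57 and 0.24) were higher in that comparison. These markers were named after their values were seen. Csf1r was at 5.70, 2.54 and 1.47 FPKM and C1qb at 20.43, 13.3 and 3.96, while Lyz2 was at 37.65, 39.78 and 44.81 FPKM and Aif1 at 2.04, 3.88 and 20.03. Of 8 neutrophil markers 3 passed, and all 8 summed to 3.11, 48.6 and 111.7 FPKM. The sum was carried by the granule genes Mpo (0.88, 39.18 and 47.88 FPKM) and Elane (0.42, 8.73 and 34.74) and by S100a8 (1.3, listed at 0, and 28.95). The other 5, Ltf and Retnlg among them, stayed below 1 FPKM. Whether RNA of macrophages or neutrophils contributed to C5ar1 was not tested.

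The 9 receptors that passed 1 FPKM were counted in each comparison beside all features tested. In late over early, 3 of 9 were at least 2-fold apart: Ptger4 and Cysltr1 higher and C5ar1 lower. Over all 14412 features tested, 19.5% were at least 2-fold apart in that comparison, 8.65% higher and 10.8% lower. Both higher members are listed at 0 in early EMP. In fetal over early, 3 of 9 were lower, namely P2rx1, P2rx7 and C5ar1, and none higher, against 26.0% of all features apart, 17.8% lower and 8.19% higher. In fetal over late none of 9 was 2-fold apart, against 11.7% of all features, 3.46% higher and 8.26% lower. With 9 genes, counts of 3, 3 and 0 are close to these shares and are no result about the receptors as a set.

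The share of features past 2-fold depended on level. Among features with a symbol whose highest value was between 1 and 5 FPKM, which is the range of C5ar1, Ptger4 and Cysltr1, 17.9% were at least 2-fold apart in late over early. In fetal over early, 25.6% of named features in that same range, which holds C5ar1, were at least 2-fold apart in either direction. The share was 13.3% between 5 and 50 FPKM, the range of P2rx7, and 8.99% at 50 FPKM or more, the range of P2rx1. These receptors were singled out because they passed 2-fold, so the shares do not show how unusual they are.

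The median log2 difference of the 9 receptors was -0.25 for late over early, -0.31 for fetal over early and -0.14 for fetal over late. Over all features tested the medians were 0.00, -0.11 and -0.10. Without the 2 receptors listed at 0 the medians of the other 7 were -0.29, -0.40 and -0.11. These comparisons share libraries and are not independent of each other.

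**Figure D4:**
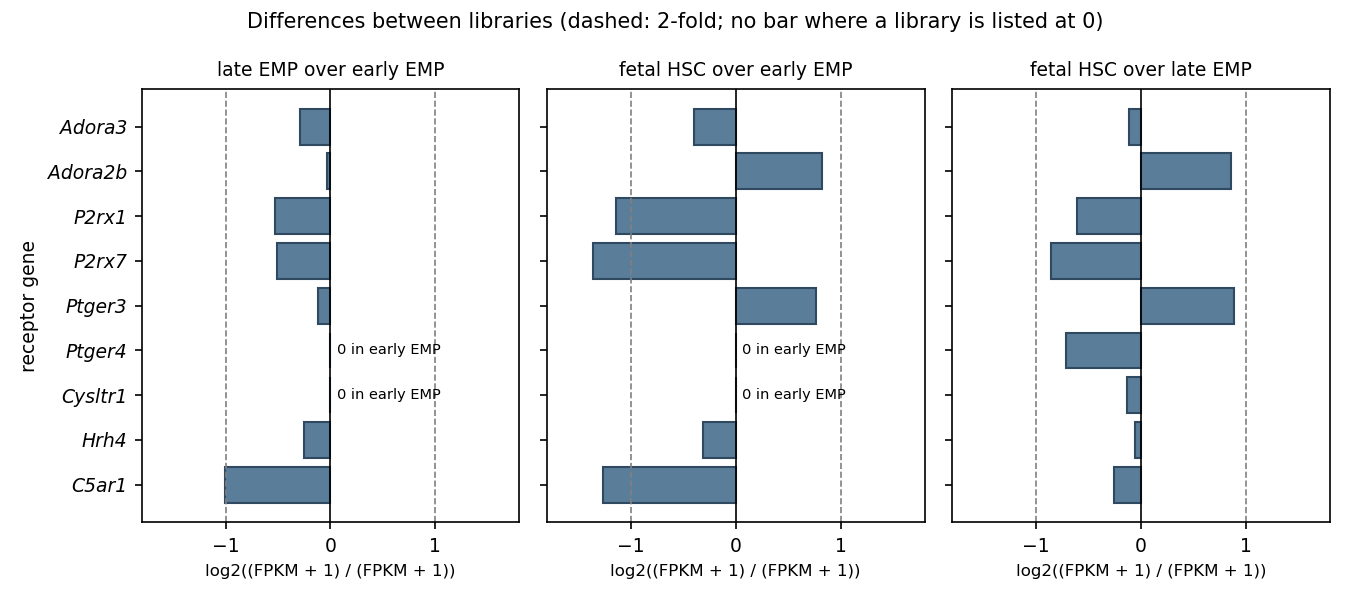
Log2((FPKM + 1) / (FPKM + 1)) of the 9 receptors that passed 1 FPKM, for late over early, fetal over early and fetal over late, with dashed lines at 2-fold. P2rx1, P2rx7 and C5ar1 lie past the lower line in the middle panel (-1.14, -1.36 and -1.27), and no bar is drawn for Ptger4 and Cysltr1 where early EMP is listed at 0.

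The order early EMP, then late EMP, then fetal HSC from high to low held for 5 of the 9 receptors: Adora3, P2rx1, P2rx7, Hrh4 and C5ar1. Of the 11529 named features tested 21.7% had that order, and of all 14412 features 24.9%. With median-of-ratios factors 3 receptors kept it, P2rx1, P2rx7 and C5ar1, while Adora3 and Hrh4 did not. Under those factors 19.2% of named features and 22.8% of all features had that order. With 9 genes and 1 library per origin, these counts are no result about the receptors as a set.

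The wider receptor families were read from gene lists. Over all features tested, 8.65% were higher and 10.8% lower in late over early, and 8.19% and 17.8% in fetal over early. In fetal over late they were 3.46% and 8.26%. These shares apply beside the counts of every gene or marker list, and the counts are no result about a list. Of 18 adenosine and P2 receptor genes found, 12 passed 1 FPKM. In late over early 3 passed 2-fold upwards and none downwards, in fetal over early 1 was higher and 2 lower, and in fetal over late none was higher and 2 were lower. The lower members over early EMP were P2rx1 and P2rx7. The higher ones, named after their values were seen, were P2ry10 (0.08, 2.16 and 3.31 FPKM), P2ry12 (listed at 0, 1.12 and 0) and P2ry13 (0.08, 1.18 and 0). P2ry12 is known from platelets and microglia.

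Among 28 receptors for prostanoids, leukotrienes and other lipids 18 passed. In late over early 5 were higher and 3 lower, in fetal over early 3 were higher and 3 lower, and in fetal over late 1 was lower. The medians were 0.20, 0.36 and 0.02. Gpr183, a receptor for oxysterols, was highest at 121, 141.69 and 202.03 FPKM. S1pr3, a receptor for sphingosine 1-phosphate, was at 41.37, 25.35 and 40.27 FPKM. Ltb4r1, the high-affinity receptor for leukotriene B4, was at 0.05 FPKM in early EMP against 8.17 and 5.99 in late EMP and fetal HSC. In the other direction, Ptafr, the receptor for platelet-activating factor, was at 10.53 FPKM in early EMP against 2.48 and 4. Lpar1, a receptor for lysophosphatidic acid, was at 40.92, 18.69 and 12.97 FPKM.

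**Figure D5:**
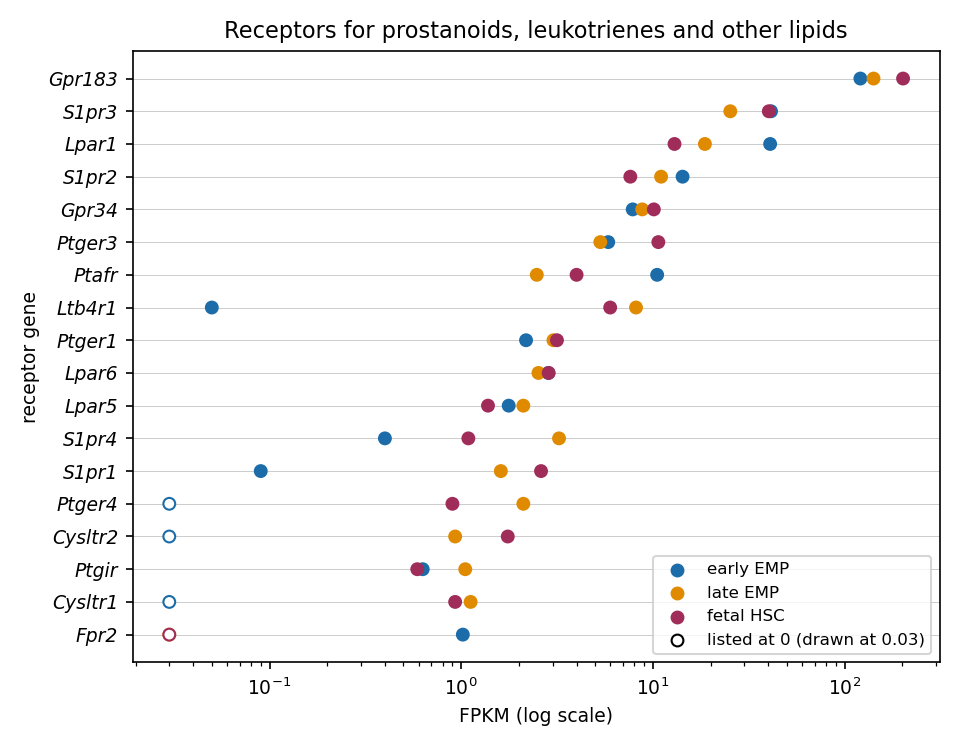
FPKM (log axis) of the 18 lipid receptor genes that passed 1 FPKM, 1 point per library, ordered by mean level, with open points for libraries listed at 0. Ltb4r1, S1pr1, Ptger4, Cysltr1 and Cysltr2 have their early EMP point far to the left of the others, and Lpar1 and Ptafr have it to the right; the points of Fpr2 for late EMP and fetal HSC coincide at 0.

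Because Ptger4, Cysltr1 and Ltb4r1 are also found on lymphocytes, eosinophils and other leukocytes, those markers were read beside them. Of 10 markers of T cells and innate lymphoid cells 8 passed, with 4 higher and 1 lower in late over early, and all 10 summed to 37.1, 52.1 and 63.3 FPKM. Icos was at 9.42, 21.62 and 23.36 FPKM, Il7r at 10.99, 16.97 and 18.56, and Cd3g at 1.55, 5.36 and 12.02, while Cd3e was at 13.54 FPKM in early EMP, listed at 0 in late EMP and at 0.63 in fetal HSC. Of 7 eosinophil markers 2 passed, with 1 higher and none lower, and all 7 summed to 8.97, 25.9 and 16.3 FPKM. The 2 were Il5ra at 4.76, 22.47 and 12.99 FPKM and Siglecf at 4.19, 2.39 and 2.47. The eosinophil granule gene Prg2 was listed at 0 in early EMP and fetal HSC and was at 0.28 FPKM in late EMP. The part of such cells in the receptor levels was not tested.

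Several genes that clear or make the ligands were abundant. Slc29a1, the transporter that takes up adenosine, was at 2154, 1785 and 1749 FPKM, and Adk, the kinase that traps it as AMP, at 792, 750.04 and 842 FPKM. Of 7 such genes that passed among 13 in the table none was 2-fold apart in late over early, and 1 was higher and 1 lower in fetal over early. The lower was Entpd1, the ectoenzyme CD39 that degrades ATP, at 4.45, 9.21 and 1.00 FPKM. The enzyme CD73, encoded by Nt5e, stayed below 0.5 FPKM. Of 12 tested makers of lipid and amine ligands 2 were higher in late over early and 4 in fetal over early, with none lower in either. Of all features 8.65% and 8.19% were higher and 10.8% and 17.8% lower in these comparisons. Hdc, the histidine decarboxylase, stood at 3614, 3061 and 3069 FPKM, and Hpgds, which makes prostaglandin D2, at 108, 92.86 and 105 FPKM. Alox5ap, the partner of 5-lipoxygenase, was at 23.81, 38.11 and 60.33 FPKM, and Lta4h, which makes leukotriene B4, at 44.19, 69.36 and 90.23. Ptges3, a prostaglandin E synthase and chaperone partner, was at 32.01, 42.46 and 66.68 FPKM.

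Complement regulators and components were read beside the receptors. Of 7 receptors and membrane regulators that passed, 2 were lower and none higher in both comparisons with early EMP. These were C5ar1 and Cd46, the latter at 1.67, 0.22 and 0.16 FPKM and named after its values were seen. Cd55, which speeds the decay of complement convertases, was at 93.06, 151.06 and 154.13 FPKM, and Cr1l, the rodent regulator Crry, at 83.04, 83.75 and 89.03. Of 8 complement components that passed, none was 2-fold apart in late over early, and 1 was higher and 4 lower in fetal over early. C1qa, a chain of C1q made by macrophages, was at 14.76, 12.17 and 3.05 FPKM, and C1qb and C1qc had the same order of libraries. Cfp, properdin, was at 48.85, 69.15 and 106.24 FPKM, and the convertase component C2 at 55.99, 40.06 and 42.49.

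The signalling genes below the receptors were read against the background at their level. Over all features, 6.49% of those at 50 FPKM or more and 10.2% of those between 5 and 50 FPKM were 2-fold apart in late over early, and 9.51% and 14.6% in fetal over early. Of 20 G protein subunits that passed, none was 2-fold apart in late over early. In fetal over early 1 was higher, Gnb1 at 117.26, 171.33 and 261.5 FPKM, and 1 lower, Gng11 at 17.33, 10.25 and 5.21. Gna15, the promiscuous G alpha subunit of blood cells, was at 8.04, 12.69 and 4.27 FPKM. Gng5 was the most abundant at 361, 393 and 395 FPKM, and Gnas, which encodes the Gs alpha subunit, was at 207, 166 and 173 FPKM. All 5 tested genes of phospholipase C beta and PI3K gamma lay within 2-fold in every comparison. Among them Pik3r6, an adaptor of PI3K gamma, was at 37.94, 30.28 and 46.80 FPKM and the catalytic Pik3cg at 19.74, 24.41 and 23.09, while the other adaptor, Pik3r5, stayed below 0.6 FPKM.

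Of 17 genes of the cyclic AMP pathway that passed, 1 was higher in late over early and none lower, and 2 were higher and 1 lower in fetal over early. Crem, a cyclic AMP response factor, was at 91.03, 136.1 and 200.49 FPKM, and Prkar1a, a regulatory subunit of protein kinase A, at 168.3, 157.43 and 184.77. Of 15 desensitisation genes 2 were higher and none lower in each comparison with early EMP. Rgs1, which shortens Gi signals, was at 2956, 2447 and 2641 FPKM and Rgs2 at 436.67, 553.85 and 572.12. Adrbk2, a receptor kinase, was at 12.23, 27.52 and 28.89 FPKM, and Grk4 at 13.27, 15.58 and 6.59. Of 8 genes around the inflammasome that P2X7 triggers, 1 was higher in late over early and 2 in fetal over early, with none lower. Il1b was listed at 0 in early EMP and was at 5.63 and 4.36 FPKM in late EMP and fetal HSC, while Nlrp3 stayed at 0.15 FPKM or less. Gsdmd, the pore-forming gasdermin, was at 51.32, 51.32 and 44.43 FPKM, and Txnip at 96.66, 59.43 and 55.66.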

How the data were processed

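Total RNA from the sorted cells (TRIzol) went to Illumina HiSeq sequencing, per the labels' protocols. FPKM values were deposited by the authors as 1 table, 1 column per library, with 2 decimals, per the file headers. The column headed as a control was matched to early EMP through its description. The submitters' processing notes name Bowtie2, RSEM, mm10 and GRCm38, without versions or settings, and strand use in counting is unstated there. RSEM divides reads shared between transcripts, which bears on Adora3 and Tmigd3.

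Differences were computed as log2((FPKM + 1) / (FPKM + 1)) over the 14412 features that reached 1 FPKM in any library, with 2-fold as the level counted. This scale understates changes of low genes. With 1 library per group no test was possible. Members, lists and the naming rule were chosen with earlier results of these data known. The rule named every member and, per list, the 2 most abundant genes and up to 4 genes at 5 FPKM or more and 2-fold apart. It was followed for the pathway lists and in part for the marker lists, of which some are given by their sums.

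Depth was implied from low values of genes with 1 transcript: 76.5%, 77.2% and 70.8% of 383, 663 and 209 values lay within 0.15 of a whole fragment number, against 30% by chance for a step fixed beforehand. The step was fitted, so whole reads were not recovered. Transcript lengths came from GENCODE M21 and coordinates from RefSeq GRCm38.p6. Promoter sequences were found for 8 of the 10 members, all but Hrh4 and Cysltr1. Tried as alternatives were other pseudocounts (0.1 or 5 FPKM), another filter (none or 5 FPKM), 3 rescalings, named features alone and a 4-fold level. The setting without members listed at 0 was chosen after seeing the data, as were some family members and markers named for their role. Tools were scipy 1.17.1 for intervals, matplotlib 3.10.9 for plots, and pandas 2.3.3 with numpy 2.4.6 under Python 3.11.15. The 2-fold call and its sign were tested on simulated data, with 4-fold changes planted in features with a mean of at least 5 FPKM. Lower features and the depth and fragment estimates were not tested in this way.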

Additional observations from a re-analysis of the deposited data

How the results depend on the processing

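The counts of receptors at least 2-fold apart rested on the pseudocount. Late over early had 3, and had 0 with a pseudocount of 5 FPKM, with the filter of 5 FPKM and at the 4-fold level, and 1, C5ar1, without the members listed at 0. Fetal over early had 3, and had 6 with a pseudocount of 0.1 FPKM, 1 with 5 FPKM and 0 at the 4-fold level. Fetal over late had 0, and had 2 with a pseudocount of 0.1 FPKM and 1, Ptger3, with median-of-ratios factors. P2rx1 stayed past 2-fold in fetal over early under every pseudocount, filter and rescaling tried, and P2rx7 under all but the pseudocount of 5 FPKM, where its log2 difference was -0.97. The size of the pseudocount itself sets how far low genes are shrunk; for the other settings the cause was not tested. Of 204 single log2 differences under alternatives, 192 stayed on their side of 2-fold, 6 moved past it and 6 moved below it, and none that was past 2-fold changed sign. The medians ranged from -0.30 to -0.18, -0.40 to -0.02 and -0.24 to -0.07 for late over early, fetal over early and fetal over late. Fewer features were 2-fold apart in the table without unnamed regions, 11.8% and 16.7% in the comparisons with early EMP. No paired analysis was possible because each origin has 1 library, and no library could be left out for the same reason. Depth limits the statements on Adora2b, Ptger4, Cysltr1, C5ar1 and C3ar1, which rest on about 121 implied fragments or fewer per library.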

Other observations

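Genes next to the receptors were read for whether a difference was shared along the chromosome. Those next to P2rx1, P2rx7, C5ar1, Ptger4 and Cysltr1 are given. P2rx1 lies between Atp2a3, which ends 6013 bases before it, and Camkk1, which begins 843 bases after it. Atp2a3, a calcium pump of the endoplasmic reticulum, was at 43.67, 40.49 and 19.35 FPKM, and Camkk1, a calmodulin-dependent kinase kinase, at 13.72, 4.01 and 5.82. Both were, like P2rx1, at least 2-fold lower in fetal HSC than in early EMP, by log2 differences of -1.13 and -1.11. Of all features tested 17.8% were lower in that comparison. Next to P2rx7, P2rx4 was within 2-fold in all comparisons. On the other side Ift81 was low, at 1.09, 0.28 and 0.50 FPKM, highest in early EMP. With 1 FPKM added its log2 differences were -0.71 for late over early and -0.48 for fetal over early, under 2-fold. As plain ratios both differences of Ift81 exceed 2-fold. Next to C5ar1, Ccdc9 ran the other way, at 3.41, 4.44 and 9.16 FPKM. C5ar2, on its other side and 2589 bases away, was low at 0, 0.51 and 0.04 FPKM. Next to Ptger4, Ttc33 was at 11.33, 9.63 and 12.8 FPKM, and Dab2, 1055601 bases away, at 3.65, 2.93 and 0.04. The span of Gm5127, at 0, 0.19 and 0.42 FPKM, overlaps that of Cysltr1. Whether reads were shared between Gm5127 and Cysltr1 was not tested. Rtl3, 233403 bases after Cysltr1, was at 0.34, 0 and 0.02 FPKM.

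The genes whose levels over the 3 libraries were most like those of P2rx1, by Euclidean distance of centred log2(FPKM + 1) values, were 2310036O22Rik, Itga2b and C77080, at distances of 0.02, 0.02 and 0.03. Of 5653 candidates at 10 FPKM or more, 22 lay within 0.1. For P2rx7 they were Dcun1d5, Stim1, the calcium sensor of store-operated entry, and Fcgrt, at 0.02, 0.04 and 0.05, with 9 within 0.1. For C5ar1 they were Clec2i, Cyp4v3 and Cfap20, for Ptger4 Ccna2, Myadm and Phgdh, and for Cysltr1 Akr1e1, Ppih and Znhit1. With 3 libraries many genes share a pattern, so this is a description only.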
